A study of Mus musculus with 6 samples.

Results

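The genes described here encode the machinery that brings proteins into mitochondria, folds them and degrades them. The rule for members uses names and no measured value, though it was written with earlier results of these data known. It takes protein-coding mouse genes whose symbols begin with Tomm or Timm followed by a digit, and 18 named chaperone, processing peptidase, protease, motor and prohibitin genes. The rule gave 43 genes, of which 42 were analysed, among 37620 gene identifiers in the count files. Counts of Tomm20 were not analysed here. RNA came from mature brown fat cells of mice on a C57BL/6 background aged 6 weeks, the floating layer left after collagenase digestion of the tissue. The comparison set 3 wild-type libraries against 3 whose label is PHOSPHO1 knockout (KO), with 3 mice pooled in every library. PHOSPHO1 is a phosphatase of phosphocholine and phosphoethanolamine. The labels do not say how the knockout allele was made, in which cells it acts, or whether wild-type mice were littermates.

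Most mitochondrial proteins are made in the cytosol. They cross the outer membrane through the TOM complex and are then sorted, by small TIM chaperones through the space between the membranes, by TIM22 into the inner membrane, or by TIM23 and its ATP-driven motor into the matrix. In the matrix, peptidases remove the targeting sequence, chaperonins fold the protein, and ATP-dependent proteases remove what fails to fold. Brown fat cells are rich in mitochondria, and their heat production rests on imported inner membrane proteins.

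Library totals ranged from 10576800 to 14239307 counts. Genes of the mitochondrial genome took 39.3% to 54.3% of counts in wild type and 39.1% to 56.5% in the other group. Phospho1 itself had counts of 13, 5 and 5 in wild type against 18, 15 and 17 under the knockout label. They were thus higher, not lower, in every library labelled knockout, though on few counts. Its log2 fold change was 1.53 (adjusted p = 0.056 by the edgeR test described below), or 0.93 with the length offsets also described below. Every direction below is that of the labels. Brown adipocyte markers were all detected, 13 of 13, with summed levels of 19556 to 28036 CPM (counts per 1000000 counts of the scaled library) in wild type against 23853 to 32454 CPM under the knockout label. The sum hides differences among them: 7 had log2 fold changes above 0 and 6 below, 1 rose, and Dio2 (-2.08, adjusted p = 0.018), Ppargc1a (-1.07, 0.034) and Ebf2 (-0.98, 0.035) fell by the edgeR test described below. With the length offsets described there these 3 were at -1.41, -0.26 and -0.49 (adjusted p = 0.068, 0.488 and 0.154). All CPM values here use TMM scaling, a library scaling that assumes most genes do not change. Markers of other cell types, none of them at 0, were also present. Summed levels were 611 to 734 against 800 to 868 CPM for 8 endothelial markers, 116 to 229 against 247 to 523 CPM for 8 macrophage markers, 471 to 550 against 585 to 701 CPM for 6 stromal markers and 366 to 1378 against 1210 to 3505 CPM for 5 erythroid markers. Single genes carried some of these sums. Among the endothelial markers 3 of 8 were above 0, with Gpihbp1 at 239 against 468 CPM, while Tek (-1.21, adjusted p = 0.040) and Flt1 (-1.24, adjusted p = 0.044) fell. Among the macrophage markers 6 of 8 were above 0, with Lyz2 at 129 against 349 CPM and Mrc1 at 8.07 against 4.25 CPM. Among the stromal markers 4 of 6 were above 0, and only Cd34 rose (0.95, adjusted p = 0.029). All 5 erythroid markers were above 0, and 2 rose, Hba-a1 (1.85, adjusted p = 0.023) and Alas2 (1.42, adjusted p = 0.041). With the length offsets Gpihbp1, Tek and Flt1 were at 0.43, -0.89 and -0.81 (adjusted p = 0.189, 0.103 and 0.098). Lyz2, Mrc1 and Cd34 were then at 0.95, -0.34 and 1.17 (adjusted p = 0.122, 0.393 and 0.057), and Hba-a1 and Alas2 at 1.02 and 0.95 (adjusted p = 0.089 and 0.136). Wild type 3 held 1279 CPM of 10 skeletal muscle markers, against 34.7 to 117 CPM in the other libraries. Mitochondrial import is common to nearly all cell types, and the part of cell mixture in the values below was not tested. In such pooled tissue, fewer cells of a type and less RNA per cell cannot be told apart.

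Of the 42 genes analysed, 39 passed the filter on low counts and were tested. Pam16 passed it only through the knockout-labelled libraries, where its counts were higher. It is among the 12 members higher at an unadjusted p under 0.05, the 12 above wild type and the 28 above 0 given below. Hspd1, the matrix chaperonin, fell in the knockout-labelled libraries, and no member rose (edgeR quasi-likelihood test, adjusted p under 0.05 over 12068 genes). Across all tested genes, 1.63% rose and 7.52% fell. At an unadjusted p under 0.05, 12 members were higher (30.8%) and 6 lower (15.4%), beside 12.3% and 18.6% of all tested genes. With DESeq2, which gave 38 of them an adjusted p, 5 members were higher (Clpp, Hspe1, Timm10, Timm50 and Tomm7) and 2 lower (Hspd1 and Clpx), beside 4.2% and 11.5% of all genes it tested. With limma-voom, 0 were higher and Hspd1 was lower, beside 1.24% and 6.15%. All 3 knockout-labelled libraries lay above all 3 wild-type libraries for 12 members (Clpp, Hspe1, Mipep, Pam16, Phb2, Timm10, Timm17a, Timm23, Timm29, Timm50, Timm8a1 and Tomm7) and below them for 6 (Afg3l2, Clpx, Hspa9, Hspd1, Timm44 and Tomm70a), beside 15.8% and 19.6% of tested genes. The log2 fold change was above 0 for 28 of 39 members (71.8%) and for 51.4% of all tested genes. Its median was 0.41 over the 39 members and 0.028 over all tested genes. With total counts alone as the scaling, these medians were 0.17 and -0.23.

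Fold changes in these libraries moved with transcript length, and the members are given with and without a correction for it. When length and GC content entered the model as offsets, 0 members rose and 0 fell, beside 0.00829% and 0% of all tested genes. At an unadjusted p under 0.05 in that fit, 6 members were higher and 6 lower, beside 9.42% and 13.8%. The members' median log2 fold change was then 0.082, with values from -1.22 for Hspd1 to 1.19 for Timm17a. The part of length in any single member's value was not tested.

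The calls depended on single libraries, among the members as among all genes. Without wild type 2, 8 members rose (Clpp, Grpel1, Hspe1, Phb2, Timm10, Timm50, Timm8b and Tomm7) and 2 fell (Hspd1 and Lonp1), beside 5.58% and 11.2% of all tested genes. Without knockout 1, 0 rose and 2 fell (Hspd1 and Clpx), beside 2.41% and 8.02%. Without any other single library 0 members rose and 0 fell. The shares of all genes that rose and fell were then 0% and 0% without wild type 1, 0.25% and 2.95% without wild type 3, 0.378% and 2.07% without knockout 2, and 0.0161% and 0% without knockout 3. The slope of a library's log2 CPM, as deviation from each gene's mean, on log2 transcript length was 0.31, -0.026 and 0.30 in wild type 1 to 3 and -0.24, -0.094 and -0.25 in knockout 1 to 3. Wild type 2 thus lay nearer in slope to knockout 2 than to the other wild-type libraries, and the part of this in the calls made without it was not tested.

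**Figure D1:**
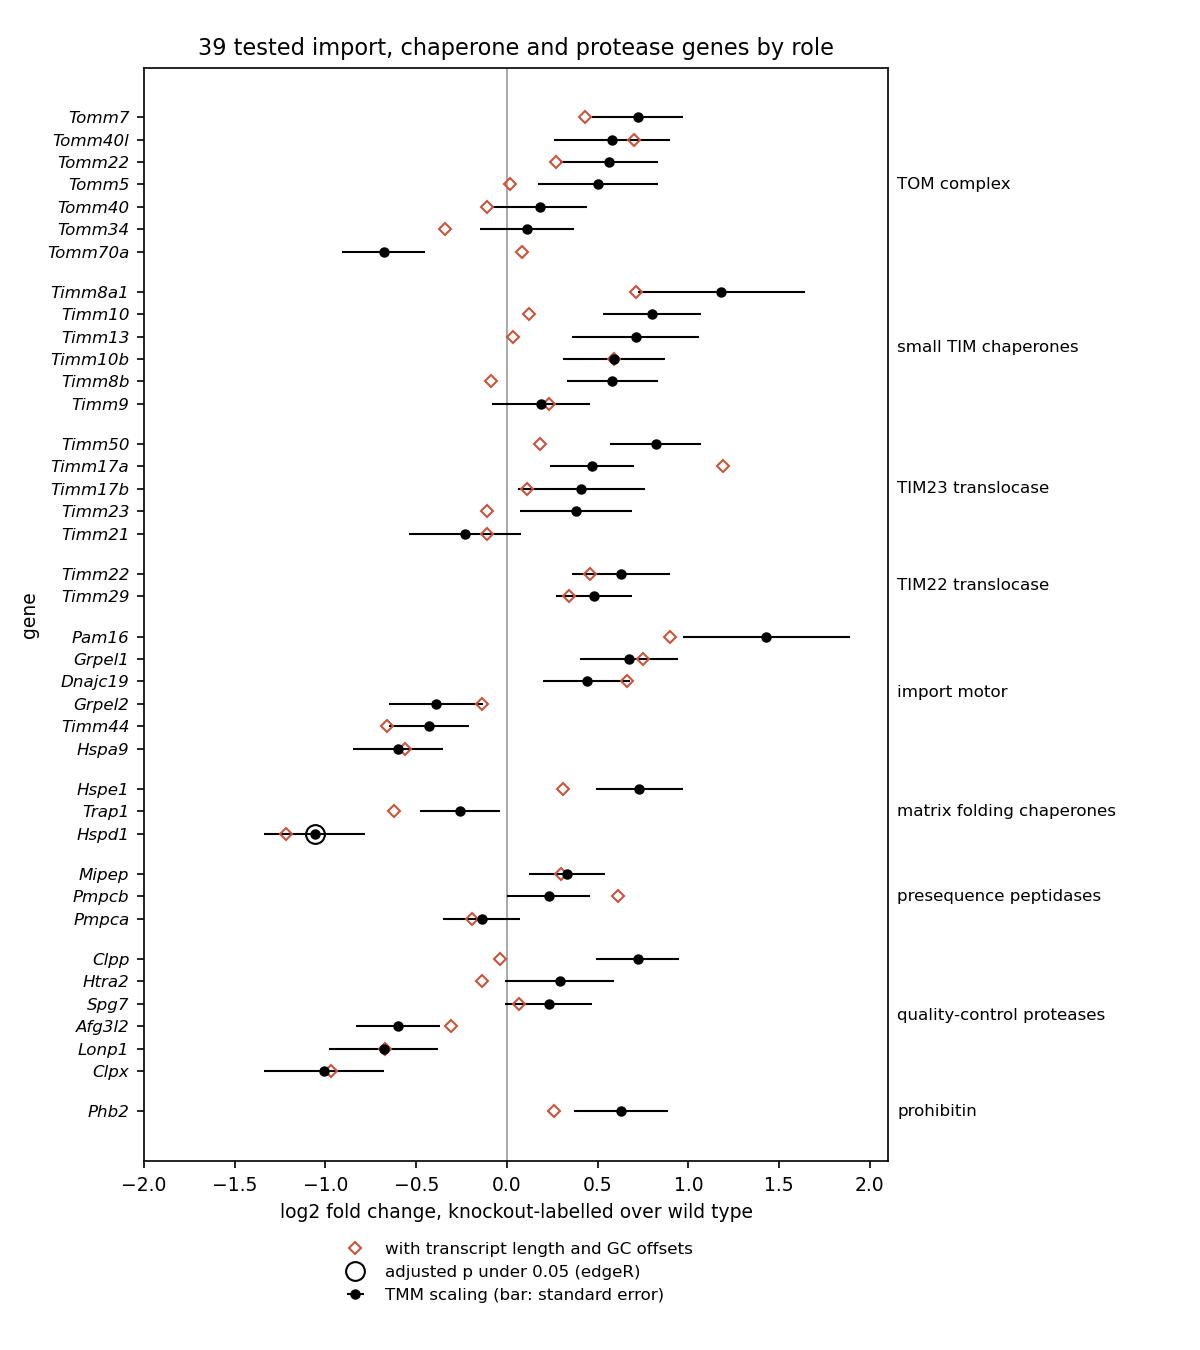
Log2 fold change of each of the 39 tested genes (x axis), knockout-labelled over wild type, grouped by role (y axis). Black points with bars are fold changes and standard errors with TMM scaling, open diamonds are fold changes with length and GC offsets, and the ringed point is Hspd1 (-1.06), the member with an adjusted p under 0.05.

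Among the 9 analysed Tomm genes, 7 were tested and none passed the threshold. Tomm70a encodes a receptor that takes up carrier proteins and their chaperones at the outer membrane. Its levels were 97.6, 89.7 and 95.9 CPM in wild type against 62.6, 69.2 and 44.9 CPM under the knockout label. The groups did not overlap, and the log2 fold change was -0.68 (SE 0.23, adjusted p = 0.080), but it was 0.082 with the length offsets. Tomm7, a small subunit that tunes the assembly of the complex, had 78.1, 113 and 74.5 CPM in wild type against 166, 119 and 153 CPM under the knockout label. All knockout-labelled values were above the wild-type ones, with a log2 fold change of 0.72 with SE 0.25 (adjusted p = 0.081) and 0.43 with the offsets.

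Tomm40 forms the protein-conducting channel, and Tomm40l is its paralogue. Tomm40 had 23.1 ± 4.59 CPM in wild type against 26.1 ± 5.77 CPM under the knockout label (SD, n = 3 each), and Tomm40l had 60.4 ± 20.8 and 90 ± 31.1 CPM. Both overlapped between groups. Of the annotated exonic bases of Tomm40l, 64.3% also lie in Nr1i3 on the opposite strand, and pseudogenes at least 85% identical to Tomm40 held 28.3% as many counts as Tomm40, so both values are uncertain. The receptor Tomm22, the small subunit Tomm5 and the cytosolic co-chaperone Tomm34 had log2 fold changes from 0.11 to 0.56 and overlapping groups. Tomm6 held 1 to 3 counts per library, and 76% of its annotated exonic bases are shared with Gm21981 on the same strand. Tomm20l held 0 counts in every library. A count of 0 allows up to 3 counts, or 0.169 to 0.306 CPM depending on the library, and covers counting error only.

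The small TIM chaperones carry hydrophobic proteins between the membranes. All 6 tested members had log2 fold changes above 0, from 0.19 to 1.18, and none passed the threshold. Timm10 had 34.6, 65.7 and 40.4 CPM in wild type against 78.6, 79.3 and 86.7 CPM under the knockout label. Its groups did not overlap, with wild type 2 nearest to the knockout-labelled values (log2 fold change 0.80, SE 0.27, adjusted p = 0.075). Timm9, its partner in the main hexamer, had 21.8 ± 4.43 and 24.8 ± 6.91 CPM (SD, n = 3 each) and overlapped. Timm8b had 87.0 ± 23.8 and 130 ± 20.1 CPM and Timm13 had 61.3 ± 30.7 and 100 ± 23.4 CPM, both with overlapping groups. Of the annotated exonic bases of Timm8b, 15.6% also lie in Nkapd1 on the opposite strand.

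Timm8a1, the X-linked gene of the same family, held only 5 to 36 counts per library, with means of 0.969 CPM in wild type against 2.27 CPM under the knockout label. Timm10b, a subunit bound to TIM22, had 12.0 ± 3.36 and 18.1 ± 3.16 CPM with overlap. Timm8a2, a paralogue of Timm8a1, held 0 counts throughout. With the length offsets Timm10, Timm13 and Timm8b were at 0.12, 0.034 and -0.086, and the median of the group moved from 0.65 to 0.18.

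Of the TIM23 genes none passed the threshold. Timm50, the receptor that takes proteins from TOM to TIM23, had the smallest adjusted p of any member above 0. Its levels were 54.8, 79.2 and 47.2 CPM in wild type against 119, 95.3 and 106 CPM under the knockout label. The groups did not overlap, and the log2 fold change was 0.82 (SE 0.25, adjusted p = 0.059), or 0.18 with the offsets. Timm17a, a core subunit of the channel, had 72.3, 106 and 90.5 CPM in wild type against 127, 112 and 132 CPM under the knockout label (log2 fold change 0.47, adjusted p = 0.188).

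With the offsets Timm17a was at 1.19 (adjusted p = 0.062), a value that rests on a longest annotated transcript of 7280 bases. The median annotated transcript of the gene is near 600 bases, and offsets built on median transcripts gave 0.58. Timm17b, Timm23 and Timm21 had log2 fold changes of 0.41, 0.38 and -0.23. Pseudogenes close to Timm17b held 17.3% as many counts as the gene. Timm23, the channel subunit itself, held 34 to 82 counts per library, and its groups were separated only by the gap between 5.39 CPM in wild type 2 and 5.4 CPM in knockout 1. The TIM22 translocase inserts carriers into the inner membrane. Timm22 had 23.3 ± 5.84 and 36.1 ± 7.53 CPM, with overlapping groups. Its metazoan partner Timm29 had 44.1 ± 4.79 and 61.4 ± 2.38 CPM, with groups that did not overlap (adjusted p = 0.155). With the offsets Timm22 and Timm29 had log2 fold changes of 0.46 and 0.34.

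The import motor pulls preproteins into the matrix by ATP hydrolysis of mortalin, encoded by Hspa9. Hspa9 was the most abundant member by count, with 732, 627 and 695 CPM in wild type against 520, 512 and 322 CPM under the knockout label. Every knockout-labelled value was below every wild-type value, with knockout 3 the lowest (log2 fold change -0.60, SE 0.25, adjusted p = 0.130). Timm44, which tethers mortalin to the channel, had 83.6 ± 11 and 62.1 ± 7.91 CPM, again without overlap (log2 fold change -0.43, adjusted p = 0.214).

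The other motor parts lay on both sides of 0. Grpel1, a nucleotide exchange factor of mortalin, had 162, 245 and 141 CPM in wild type against 343, 233 and 294 CPM under the knockout label, where knockout 2 lay below wild type 2. Its log2 fold change was 0.67 (SE 0.27, adjusted p = 0.12). Grpel2, its paralogue, had 15.5 ± 1.95 and 11.8 ± 2.40 CPM (log2 fold change -0.39, adjusted p = 0.318). The J-protein Dnajc19 had a log2 fold change of 0.44. Pam16, which holds the J-protein in check, held 4 to 9 counts in wild type and 12 to 14 in the knockout-labelled libraries. Its log2 fold change of 1.43 with SE 0.46 (adjusted p = 0.069) rests on few counts. Only the knockout-labelled libraries took Pam16 past the filter on low counts, so that it was tested depended on the group where it was higher. Of the annotated exonic bases of Pam16, 18.7% also lie in Glis2 on the opposite strand, which held 50 counts over all libraries. With the offsets Hspa9, Timm44, Grpel1, Grpel2, Dnajc19 and Pam16 were at -0.56, -0.66, 0.75, -0.14, 0.66 and 0.90.

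The matrix chaperonin and its lid differed in opposite orders between the groups. Hspd1 (ENSMUSG00000025980) encodes the barrel-forming chaperonin HSP60, and Hspe1 (ENSMUSG00000073676) encodes HSP10, the lid that closes the barrel. Hspd1 had 154, 126 and 150 CPM in wild type against 81.8, 82.4 and 42.4 CPM under the knockout label. Every knockout-labelled library was lower, and knockout 3 was the lowest. The mean fell from 143 ± 14.8 to 68.8 ± 22.9 CPM (SD, n = 3 each), 2.08-fold, with a log2 fold change of -1.06 with SE 0.28 (edgeR adjusted p = 0.040).

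Hspe1 had 24.8, 34.5 and 29.4 CPM in wild type against 48.6, 40.4 and 58.0 CPM under the knockout label, so its groups were also separate but in the other order. Its log2 fold change was 0.73 (SE 0.24, adjusted p = 0.075). With the offsets Hspd1 was at -1.22 (adjusted p = 0.061) and Hspe1 at 0.31 (adjusted p = 0.393). The call for Hspd1 was lost without wild type 1 (adjusted p = 0.178), wild type 3 (0.077), knockout 2 (0.061) or knockout 3 (0.105). Pseudogenes close to Hspd1 held 6.98% as many counts as the gene. Trap1, the mitochondrial HSP90, had 171 ± 9.27 and 143 ± 20.8 CPM (log2 fold change -0.26, adjusted p = 0.417). With the offsets Trap1 was at -0.62 (adjusted p = 0.107).

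Hspd1 and Hspe1 are neighbours on opposite strands that point away from each other, and 112 of their annotated exonic bases overlap. The window of 300 bases around the RefSeq start of Hspe1 (250 before and 50 after, GRCm38.p6, chr1:55087898-55088197, plus strand) shares 285 bases with that of an annotated Hspd1 start on the other strand, and those starts lie 216 bases apart. RefSeq has a second Hspd1 start, 95 bases from that of Hspe1, whose window shares 4 bases with the one shown and holds none of the motifs searched. The counts do not show which start is used. The window is shown because the 2 neighbours lay in opposite orders between the groups, though Hspe1 did not pass the threshold. The count files were made on another build (mm9), so these coordinates belong to the annotation and not to the counts. In the window, capitals mark the heat shock element cores TTCNNGAA and GAANNTTC (each its own reverse complement) and the ETS factor core CCGGAAG on either strand, found by a search of the letters. The cores overlap each other in a single block of 19 bases.

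Hspe1: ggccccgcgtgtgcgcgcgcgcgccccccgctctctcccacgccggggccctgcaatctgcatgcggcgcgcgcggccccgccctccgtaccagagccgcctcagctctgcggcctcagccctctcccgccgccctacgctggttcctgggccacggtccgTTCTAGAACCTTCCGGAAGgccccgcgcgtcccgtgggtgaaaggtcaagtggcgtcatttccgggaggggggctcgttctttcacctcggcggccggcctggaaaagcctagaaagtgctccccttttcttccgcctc

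RefSeq windows were found by symbol for 36 of the 43 genes, 32 of them tested, with 35 windows. Of these 35, 7 held TTCNNGAA (20%), beside 8.52% of 32851 windows of all genes and 6.96% of 11623 windows of tested genes. GAANNTTC was in 3 (8.57%, beside 7.86% and 5.63%), and CCGGAAG in 16 (45.7%, beside 8.86% and 17.6%). The Hspe1 window and that of an Hspd1 start share 285 bases. The same block is therefore counted in both windows for each of these motifs. The NRF1 core GCGCATGC, on either strand, was in 3 windows (8.57%, beside 2.71% and 5.21%), those of Clpx, Grpel1 and Timm13. These matches are descriptions of letters and not of bound sites.

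**Figure D2:**
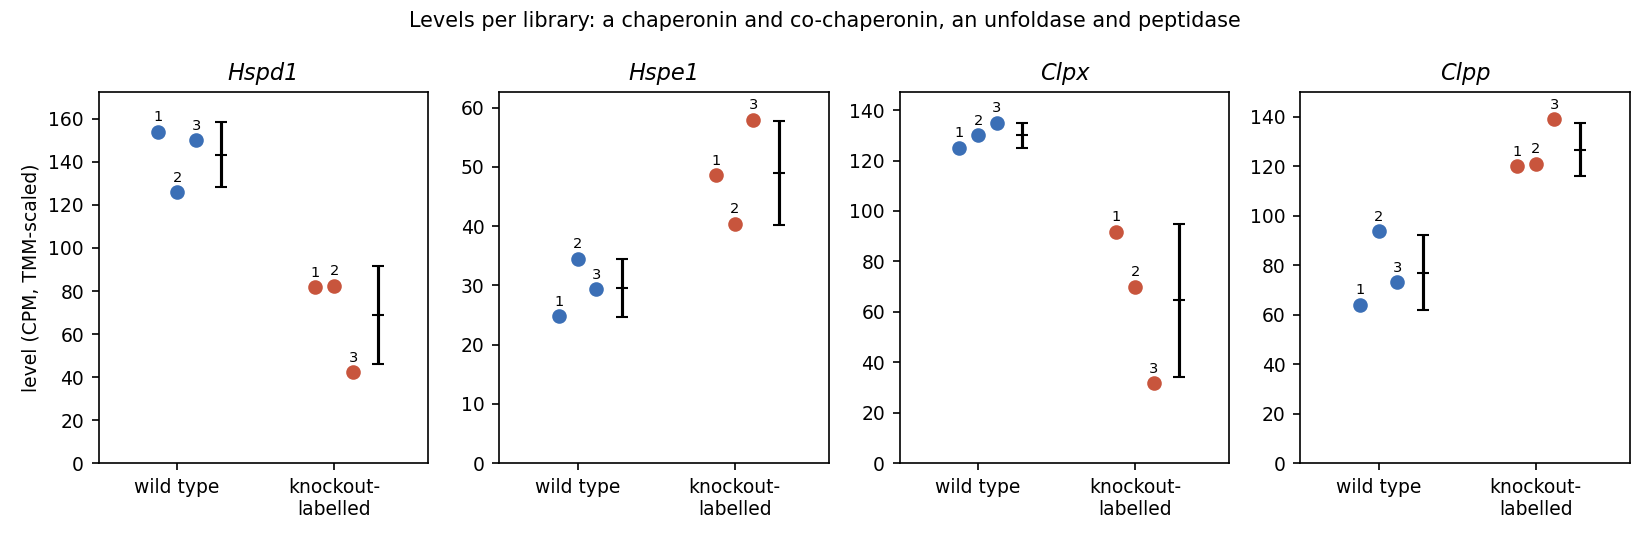
Level of Hspd1, Hspe1, Clpx and Clpp in each library (y axis, CPM with TMM scaling; each panel starts at 0). Points are libraries with their replicate numbers, and the bars beside them are the mean and SD of 3 libraries. Hspd1 and Clpx lie lower, and Hspe1 and Clpp higher, in all 3 knockout-labelled libraries than in any wild-type library.

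Among the quality-control proteases, Clpx and Clpp were likewise separated in opposite orders. They encode the parts of ClpXP, in which the unfoldase ClpX feeds the peptidase ClpP. Clpx had 125, 130 and 135 CPM in wild type against 91.8, 70.0 and 31.8 CPM under the knockout label. Clpp had 64.1, 93.8 and 73.1 CPM in wild type against 120, 121 and 139 CPM under the knockout label. Neither gene overlapped between groups, and knockout 3 was the most distant for both. Clpx had a log2 fold change of -1.01 with SE 0.33 (adjusted p = 0.071) and Clpp one of 0.72 (SE 0.23, adjusted p = 0.067), so neither passed. With the offsets Clpx was at -0.97 (adjusted p = 0.097) and Clpp at -0.036 (adjusted p = 0.927). The longest annotated transcript is 2885 bases for Clpx and 983 bases for Clpp.

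The start windows of these 2 genes are shown to compare with the shared window above, since Clpx and Clpp lie on different chromosomes (chr9:65294010-65294309 and chr17:56990014-56990313, both plus strand, GRCm38.p6, from RefSeq). Capitals mark the same motifs and the NRF1 core. The Clpx window held 1 NRF1 core and the Clpp window an ETS core overlapping a TTCNNGAA.

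Clpx: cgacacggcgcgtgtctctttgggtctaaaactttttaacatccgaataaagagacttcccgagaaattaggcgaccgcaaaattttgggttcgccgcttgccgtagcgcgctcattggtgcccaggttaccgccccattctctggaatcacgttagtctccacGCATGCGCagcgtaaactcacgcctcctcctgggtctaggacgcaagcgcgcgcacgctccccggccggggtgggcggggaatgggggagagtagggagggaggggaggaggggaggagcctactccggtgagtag

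Clpp: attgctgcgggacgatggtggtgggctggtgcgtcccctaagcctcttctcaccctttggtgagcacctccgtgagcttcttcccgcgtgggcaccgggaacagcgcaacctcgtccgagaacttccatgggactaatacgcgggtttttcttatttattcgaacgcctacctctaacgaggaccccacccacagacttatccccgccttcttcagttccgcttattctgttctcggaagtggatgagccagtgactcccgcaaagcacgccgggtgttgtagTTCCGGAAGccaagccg

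Lonp1, the main soluble matrix protease, had 51.7, 28.6 and 55.2 CPM in wild type against 23.6, 36.3 and 24.7 CPM under the knockout label. Wild type 2 lay among the knockout-labelled values, and the log2 fold change was -0.68 (SE 0.30, adjusted p = 0.144). Afg3l2 and Spg7 encode subunits of the inner membrane m-AAA protease. Afg3l2 had 82.4 ± 13.9 and 54.2 ± 8.38 CPM without overlap (log2 fold change -0.60, adjusted p = 0.112), while Spg7 had 39.1 ± 7.95 and 45.8 ± 6.08 CPM with overlap (0.23, adjusted p = 0.521). Pseudogenes close to Afg3l2 held 16% as many counts as the gene. With the offsets Lonp1, Afg3l2 and Spg7 were at -0.67, -0.31 and 0.069. Htra2, a protease between the membranes, had 22.4 ± 4.73 against 27.4 ± 10.8 CPM (log2 fold change 0.29, adjusted p = 0.528), and 25.6% of its annotated exonic bases are shared with Aup1 on the opposite strand.

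None of the presequence peptidases passed the threshold. Pmpca and Pmpcb encode the subunits of the processing peptidase, and Mipep trims some of its products further. Pmpca had 81.0 ± 3.62 and 73.4 ± 5.09 CPM, Pmpcb 208 ± 39.1 and 244 ± 21.2 CPM, and Mipep 65.6 ± 8.24 and 82.6 ± 3.06 CPM. Their log2 fold changes were -0.14, 0.23 and 0.33 (adjusted p = 0.657, 0.512 and 0.301), and the groups of Mipep did not overlap. With the offsets Pmpca, Pmpcb and Mipep were at -0.19, 0.61 and 0.30. Of the annotated exonic bases of Pmpca, 20.4% also lie in Inpp5e on the opposite strand. Phb2, a subunit of the prohibitin ring that holds the m-AAA protease, had 145, 232 and 169 CPM in wild type against 241, 260 and 348 CPM under the knockout label. These groups were separate by a small gap between wild type 2 and knockout 1 (log2 fold change 0.63, SE 0.26, adjusted p = 0.121). With the offsets Phb2 was at 0.26.

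Ratios of the raw counts of 2 genes within a library do not depend on library scaling, and 8 pairs of partners or paralogues were compared. Hspd1 counts were 6.21, 3.67 and 5.08 times those of Hspe1 in the wild-type libraries and 1.68, 2.04 and 0.731 times in the knockout-labelled ones. The geometric mean ratio was 3.59-fold lower in the knockout-labelled libraries, with no overlap (log2 difference -1.84). For Clpx over Clpp the ratios were 1.95, 1.38 and 1.84 against 0.762, 0.581 and 0.229, a difference of -1.87, also without overlap. In both pairs knockout 3 had the lowest ratio. With 1 library left out the differences ranged from -2.13 to -1.40 for Hspd1 over Hspe1 and from -2.23 to -1.36 for Clpx over Clpp.

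Grpel1 over Grpel2 was 9.41, 15.4 and 10.5 in wild type and 24.3, 19.2 and 31.5 in the knockout-labelled libraries, a log2 difference of 1.09 without overlap. Pmpca over Pmpcb differed by -0.38 without overlap, with ratios from 0.350 to 0.468 in wild type and from 0.259 to 0.338 in the knockout-labelled libraries. For these 4 pairs the exact two-sided permutation p was 0.1, the smallest that 3 against 3 libraries allow, and 0.2 after adjustment over the 8 pairs. The pairs were chosen with earlier results of these data known, which these p-values do not take into account. The other 4 pairs overlapped, with differences of 0.034 for Timm17a over Timm17b, -0.41 for Tomm40 over Tomm40l, 0.66 for Timm8a1 over Timm8b and -0.68 for Timm9 over Timm10 (exact permutation p from 0.2 to 1). As differences of fold changes with the length offsets, Hspd1 over Hspe1 was at -1.53, Clpx over Clpp at -0.94, Grpel1 over Grpel2 at 0.89 and Pmpca over Pmpcb at -0.80.

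**Figure D3:**
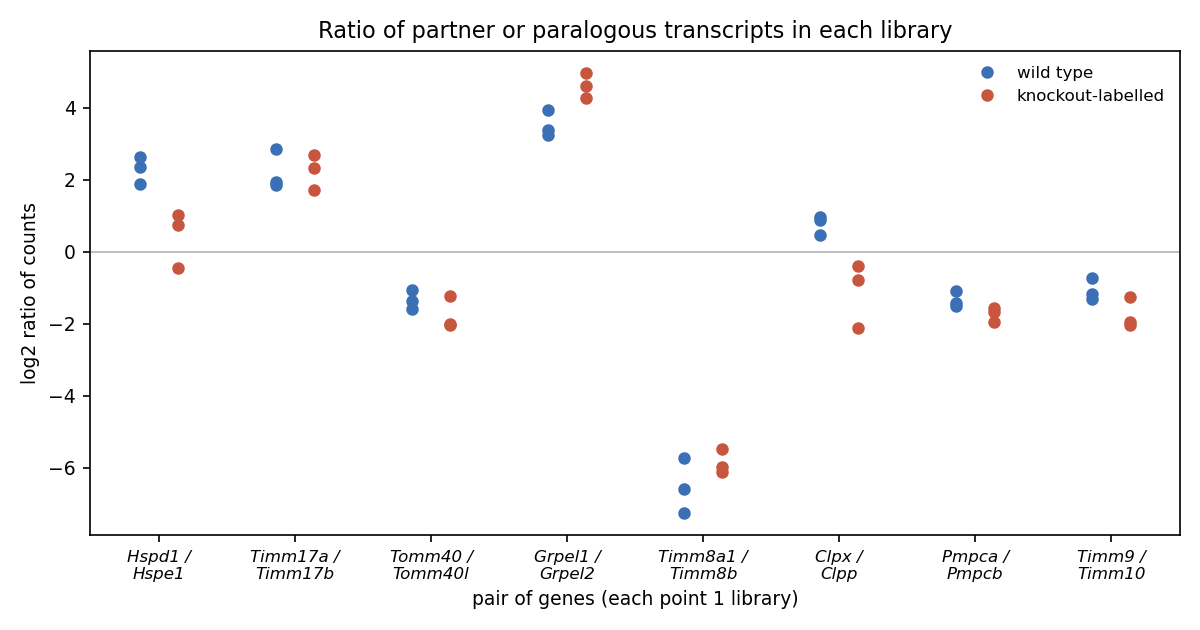
Log2 ratio of the counts of 2 genes (y axis) in each library for 8 pairs of partners or paralogues (x axis). Each point is 1 library. Wild-type and knockout-labelled points are separate for Hspd1 over Hspe1, Grpel1 over Grpel2, Clpx over Clpp and Pmpca over Pmpcb.

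Levels per transcript length set the members in an order across all 6 libraries, as CPM per kilobase of the longest annotated transcript. Timm8b was highest at 209 ± 59.1 CPM per kilobase, followed by Hspa9 at 186 ± 49.2 and Tomm7 at 104 ± 33.4 (SD over 6 libraries). These means pool both groups. On this measure Hspa9 lay above Timm8b in wild type 1 and 3 but not 2, and below it in every knockout-labelled library. In wild type Hspa9 had 240, 206 and 228 and Timm8b 137, 221 and 146 CPM per kilobase, and under the knockout label Hspa9 had 170, 168 and 106 and Timm8b 276, 206 and 269. The median over the 39 tested members was 17 CPM per kilobase. The lowest tested members were Grpel2 at 3.38 ± 0.693, Timm8a1 at 1.14 ± 0.662 and Pam16 at 0.493 ± 0.269. Hspd1 had 63.5, 52.2 and 61.8 CPM per kilobase in wild type, above Hspe1 at 25.7, 35.8 and 30.5. Under the knockout label Hspd1 had 33.8, 34 and 17.5, below Hspe1 at 50.4, 41.9 and 60.2. With median transcripts the means of Hspd1 and Hspe1 over all libraries were 123 and 45.2, against 43.8 and 40.7 with the longest. The median transcripts are nearly equal, 863 bases for Hspd1 and 869 for Hspe1, so on that measure the order follows the CPM. There Hspd1 (81.8, 82.4 and 42.4 CPM under the knockout label) was below Hspe1 (48.6, 40.4 and 58.0 CPM) only in knockout 3. The order depended on which transcript was used: with median annotated transcripts, Hspa9 was at 679 CPM per kilobase and ranked 1, and Timm8b ranked 5. As a whole, the members took 0.6% to 0.652% of nuclear gene counts in wild type and 0.588% to 0.643% in the knockout-labelled libraries, so their summed share overlapped.

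**Figure D4:**
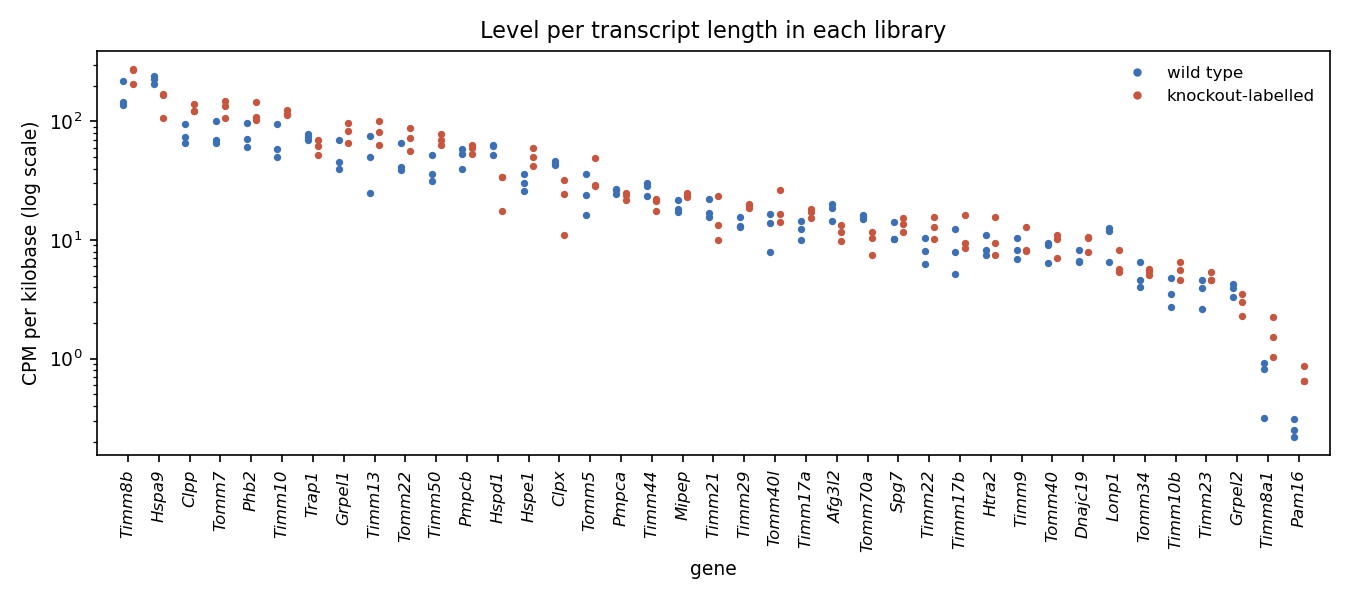
Level per transcript length (y axis, CPM per kilobase, log scale) of the 39 tested genes in each library, ordered by their mean. Each point is 1 library, wild type to the left and knockout-labelled to the right of each position, from Timm8b (mean 209) to Pam16 (mean 0.493).

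Short transcripts were relatively higher and long ones lower in the knockout-labelled libraries, among the members as among all genes. Across the 39 members, Spearman's rho between log2 fold change and the longest transcript's length was -0.54, beside -0.58 across 11863 tested genes with a length. With the median transcript's length the values were -0.44 and -0.36, so the relation across all genes was weaker on that measure. Genes are not independent replicates, and all fold changes share the same 6 libraries. All 12 members of 2000 bases or shorter had fold changes above 0, with a median of 0.72. So did 85.9% of all tested genes of that length, with a median of 0.50. Pam16, which passed the filter only through the knockout-labelled libraries, is among these 12 members. Among the 15 members longer than 3000 bases, 8 were above 0 (53.3%, median 0.23), beside 31.4% of all tested genes of that length (median -0.34). Hspd1 (2423 bases) and Clpx (2885 bases) were the lowest members and lay in the middle range, where the members' median was 0.18 and that of all genes 0.20.

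**Figure D5:**
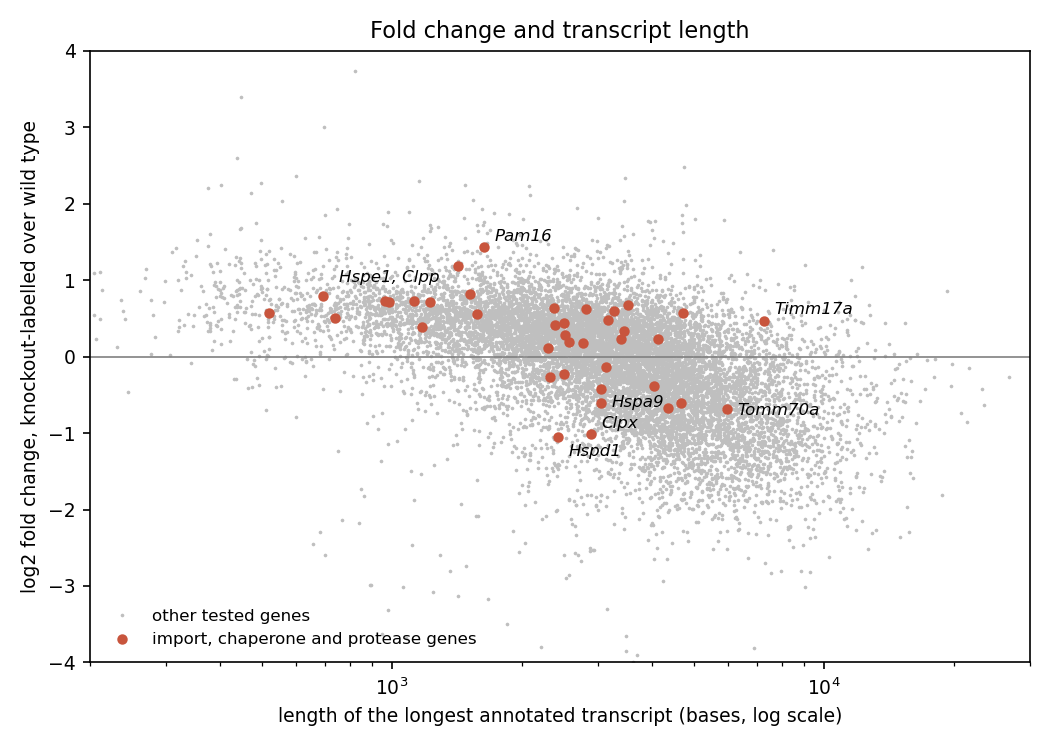
Log2 fold change, knockout-labelled over wild type (y axis), against the length of the longest annotated transcript (x axis, bases, log scale) for tested genes (grey) and the 39 tested import, chaperone and protease genes (red). Of 11863 genes with a length, 30 lie outside the plotted range. Hspd1 and Clpx lie at -1.06 and -1.01, below the median of 0.20 for genes of over 2000 to 3000 bases.

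Other genes of import and quality control outside the rule gave 0 higher and 1 lower among 25 tested, with 4 higher and 4 lower at an unadjusted p under 0.05, 1 and 4 by DESeq2 and 0 and 1 by limma-voom. The shares of all tested genes were 1.63% higher and 7.52% lower, 12.3% and 18.6% at an unadjusted p under 0.05, 4.2% and 11.5% by DESeq2, and 1.24% and 6.15% by limma-voom. Mtx3, a metaxin of the outer membrane, fell from 22.0 ± 4.77 to 9.63 ± 2.97 CPM (log2 fold change -1.19, SE 0.30, adjusted p = 0.036), and it was at -0.46 with the offsets. Mtx1, its relative, had 26.9 ± 5.93 against 48.3 ± 5.43 CPM (log2 fold change 0.84, adjusted p = 0.051), and it was at 0.20 with the offsets. Xpnpep3, a peptidase that trims processed proteins, was at -1.20 (adjusted p = 0.061), 9.16 ± 3.99 against 3.99 ± 0.581 CPM.

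Cytosolic chaperones, some of which hand preproteins to the import receptors, gave 0 higher and 2 lower among 19 tested. The counts were 2 and 2 at an unadjusted p under 0.05, 0 and 2 by DESeq2 and 0 and 1 by limma-voom, beside the same shares of all genes. Of the 19, 11 had log2 fold changes above 0 and 8 below. The knockout-labelled libraries lay above wild type for 5 and below for 2, beside 15.8% and 19.6% of all tested genes. Hspa4 fell from 93.3 ± 21.3 to 37.0 ± 13.1 CPM (log2 fold change -1.33, adjusted p = 0.024). Hsph1, like Hspa4 an HSP110-type exchange factor, fell from 25.2 ± 11.3 to 11.3 ± 1.85 CPM (-1.15, adjusted p = 0.046). Cct3 had 81.5 ± 11 against 124 ± 11.7 CPM (0.60, adjusted p = 0.096). With the offsets Hspa4, Hsph1 and Cct3 were at -1.01, -0.84 and 0.68 (adjusted p = 0.067, 0.129 and 0.085). The 75 tested mitochondrial ribosomal proteins, another nuclear-encoded set of imported proteins, had 71 fold changes above 0 and 4 below, with a median of 0.57. Of them 1 rose and 0 fell, with 38 and 0 at an unadjusted p under 0.05, 11 and 0 by DESeq2 and 0 and 0 by limma-voom. The one that rose was Mrpl52 (log2 fold change 1.07, adjusted p = 0.043), with an adjusted p of 0.0502 by limma-voom and a log2 fold change of 0.36 with the offsets (adjusted p = 0.348). Among the 39 members 28 were above 0 and 11 below. With the offsets the ribosomal median was 0.11 and 49 of 75 were above 0, and 23 of the 39 members were. The difference between these lists was not tested.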

How the data were processed

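Each library's file, as the authors deposited it, holds whole-number read counts by Ensembl gene with no scaling. Per the submitters' processing notes, STAR 2.5.4b and build mm9 were used. Counting program, strand setting and handling of multi-mapping reads: not given in the sources used here. Antisense or near-identical genes therefore cannot be told apart. No 2 libraries held identical values.

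Symbols, transcript lengths, GC content and exon overlaps came from GENCODE M21 (GRCm38) by Ensembl ID: 32897 of 37620 identifiers matched, the rest holding 0.178% of counts. Pseudogenes were matched with BLAST 2.17.0. Start windows came from RefSeq.

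Counts were tested in R 4.3.3 with edgeR 4.0.16 (filterByExpr with minimum count 10 and minimum total 15, TMM, robust quasi-likelihood F test, two-sided, Benjamini-Hochberg over 12068 genes, threshold 0.05). Standard errors come from the F statistic. Offsets were smooth trends (mgcv 1.9.3, basis size 6, prior count 2) of each library's log2 deviation on length and GC. Log2 ratios used a prior count of 0.5 and exact permutation. Alternatives were DESeq2 1.42.0, limma-voom (limma 3.58.1), other scalings and filters, offsets, the replicate number as a block, and each library left out. The scripts were tested on simulated data.

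Members, lists, roles and pairs were chosen with earlier results of these data known. Named members are those past the threshold, the 2 with the smallest p in each role, all in the pairs, and the 3 highest and 3 lowest per length; the others were named to account for every member. P-values measure the spread between libraries, each from a pool of 3 mice. Differences between pools and differences in library handling cannot be told apart in that spread. Depth limits genes with few counts.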

Additional observations from a re-analysis of the deposited data

How the results depend on the processing

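Hspd1 stayed below 0 under all 18 alternatives (log2 fold change -1.29 to -0.82, adjusted p 0.006 to 0.178) and passed in 11 of them. The count of members that rose was 0 with TMM, 1 with upper-quartile scaling (Timm50), 5 with DESeq2, and 0 to 8 with 1 library left out, 8 being without wild type 2. The count that fell was 1, and it was 2 with DESeq2, without the filter on low counts and with the replicate block (Hspd1 and Clpx each time). It was 0 with offsets on the longest or the median transcript and 0 with the replicate block and offsets together, and 0 to 2 with 1 library left out. Same-numbered libraries did not deviate together across genes (r = 0.14, -0.53 and 0.03), and wild type 2 and 3 correlated best with knockout 1 and 2. With 3 libraries per group these correlations cannot decide whether same-numbered libraries were handled together, which the labels do not say. An exact sign-flip permutation test of the ratios by number cannot go below p = 0.25. Timm17a over Timm17b went from -0.19 to 0.36 with 1 library left out. Of 25 named members, 18 had no change of sign. With total counts alone Pmpcb, Timm9 and Tomm40 were at -0.034, -0.058 and -0.084. With offsets on the longest transcript Clpp, Timm8b, Tomm40 and Tomm70a were at -0.036, -0.086, -0.11 and 0.082, and with the replicate block added at -0.035, -0.10, -0.13 and 0.082. With median transcripts Grpel2, Tomm40 and Tomm70a were at 0.16, -0.16 and 0.18. With 1 library left out Timm9 ranged from -0.061 to 0.35 and Tomm40 from -0.002 to 0.33. The cause of these changes was not tested. Depth limits Pam16, Timm8a1, Timm23 and Tomm6.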

Other observations

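The ATP-hydrolysing members and the proteins that work with them were grouped after their values were seen, so their counts are a description with no test. Among 7 ATPases (Hspa9, Hspd1, Trap1, Clpx, Lonp1, Afg3l2 and Spg7), 6 had log2 fold changes below 0, all but Spg7. Their median was -0.60, and 51.4% of all tested genes were above 0. For 4 of the ATPases every knockout-labelled library was below every wild-type library, as for 19.6% of all tested genes. With length and GC offsets 6 ATPases were below 0, with a median of -0.62, and 45.6% of all tested genes were above 0. With total counts alone all 7 were below 0, a scaling under which 36.4% of all tested genes were above 0. Among 7 partners (Hspe1, Grpel1, Grpel2, Dnajc19, Pam16, Timm44 and Clpp), 5 were above 0, beside 51.4% of all tested genes. The partners' median was 0.67, and Grpel2 and Timm44 were below 0. All knockout-labelled libraries lay above wild type for 3 of the partners and below for 1, beside 15.8% and 19.6% of all tested genes. Pam16 is among these 3, and it passed the filter only through the knockout-labelled libraries. With the offsets 4 partners were above 0 and 3 below, with a median of 0.31, beside 45.6% of all tested genes above 0. The median of the longest transcripts was 3049 bases for the ATPases and 2499 bases for the partners, and the part of length in this contrast was not tested beyond the offsets.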
